A study of Rattus norvegicus with 12 samples.

Results

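The genes described here encode the voltage-gated calcium and sodium channels of rat hippocampus: the pore-forming α1 (Cacna1), α2δ (Cacna2d), β (Cacnb) and γ (Cacng) genes of the calcium channel family, and the pore-forming α and accessory β genes of the sodium channels (Scn). Members were taken from the RNA table by gene symbol and by a summed estimated count of at least 10 over 6 libraries. That left 37 of 26949 genes, 24 of the calcium and 13 of the sodium channel family. Cacna2d4, with a sum of 12, lay just inside the limit, and Scn10a, with a sum of 9, just outside it.

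Hippocampal RNA came from male rats kept in normoxia for 4 weeks (control, 3 libraries) or exposed to 4 weeks of chronic intermittent hypoxia (CIH), in which oxygen is lowered over and over in cycles (3 libraries). The sources used here do not give strain, age or the depth of the hypoxia. Nothing in the labels ties each library to its own animal, so p-values measure the spread between these libraries, which may be technical. Libraries held 17170943 to 21941173 estimated counts.

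Voltage-gated channels open when the membrane depolarises. Sodium channels carry the upstroke of the action potential, and calcium channels turn that signal into transmitter release, dendritic spikes and calcium-driven gene expression. Each pore protein is joined by accessory subunits that set its delivery to the membrane and its gating, and several γ proteins of the calcium channel family instead accompany AMPA-type glutamate receptors.

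CIH replicate 1 stood apart in tissue markers and in many channel genes. A marker score is the mean log2 CPM (estimated counts scaled to library size) of a list's tested genes minus their mean over the 6 libraries. The dentate granule score was -1.34 in CIH replicate 1 against -0.13 to 0.73 in the other libraries, and the cortex score was 0.85 against -0.37 to 0.04. The choroid plexus score was -1.95 there and ran from -0.24 to 1.18 elsewhere, and the endothelial and mural score was 0.44 against -0.21 to 0.05. Oligodendrocyte scores were 0.56 in control replicate 1 and 0.61 in CIH replicate 3, but -0.62 and -0.61 in control replicates 2 and 3. Control replicate 1 and CIH replicate 3 were also the pair of libraries with the smallest chi-square per degree of freedom (6.67, against 12.3 or more for every other pair), although their labels put them in different groups. Whether the dissection and labels of these libraries and of CIH replicate 1 are as intended was not tested, and every CIH over control value below takes the labels as given. In bulk tissue, fewer cells of a type and less RNA per cell cannot be told apart.

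The lists for hippocampal cells were all present: summed TPM (the authors' expression level, scaled to transcript length and library size) was 109.7 to 489.2 for dentate granule, 322.0 to 830.8 for CA1 pyramidal, 93.2 to 229.6 for CA3 pyramidal and 601.8 to 804.1 for GABAergic interneuron markers. Some markers were near absent and not tested. Over the 6 libraries, the dentate markers Tdo2 and Lct had 3 and 24 counts, Spink8 (CA1) had 11 and Iyd (CA3) had 16. Over the tested members of each list, log2 fold changes (CIH over control) above 0 numbered 0 of 6 for dentate granule (median -0.43), 4 of 5 for CA1 (0.44), 3 of 5 for CA3 (0.01), 1 of 8 for interneurons (-0.19) and 5 of 5 for cortex (0.56). They numbered 3 of 6 for astrocytes (0.02), 6 of 6 for oligodendrocytes (0.36), 2 of 4 for their precursors (0.00), 4 of 5 for microglia (0.10), 6 of 6 for endothelial and mural cells (0.30) and 0 of 4 for choroid plexus (-0.73). The remaining lists were thalamus, with 3 of 5 (0.12), skeletal and cardiac muscle, with 2 of 3 (0.08), and peripheral sensory neurons, with 1 of 3 (-0.20). Over all genes tested, 50.6% were above 0, with a median of 0.00. No marker gene passed the edgeR test. At an unadjusted p under 0.05 there were 2 of 8 interneuron, 1 of 6 endothelial or mural and 1 of 5 thalamus genes. The share over all genes tested was 1.78%. The 2 interneuron genes went opposite ways, with Pvalb at 0.42 (SE 0.15) and Slc32a1 at -0.38 (SE 0.15). Groups did not overlap in log2 CPM for 1 interneuron, 2 endothelial or mural, 1 cortex and 1 thalamus gene, against 5.70% of all genes.

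Between CIH and control, no channel gene passed the test. Of the 37 members, 34 had enough counts to be tested with edgeR's quasi-likelihood test, and 0 passed after Benjamini-Hochberg adjustment over all genes (adjusted p = 1.00 for each of the 34), where 0.0% of all 17935 genes tested were called. Log2 fold changes were above 0 for 17 channel genes and below 0 for 17, with a median of 0.01 beside a median of 0.00 over all genes tested. At an unadjusted p under 0.05 there were 3 channel genes, among them Cacna2d3 and Scn7a (8.82% of those tested, against 1.78% of all genes). That count moved with single libraries, as did the count over all genes (319 of 17935 with all libraries). Without control replicate 1 it was 7 (1007 of 18349 over all genes), and without CIH replicate 2 it was 3 (614 of 18339). It was 1 without CIH replicate 1 (403 of 18251) or CIH replicate 3 (341 of 18320). Without control replicate 2 (254 of 18244) or control replicate 3 (145 of 18299) it was 0. With the replicate number as a block it was 1 (317 of 17935). DESeq2 also called 0 channel genes and gave 3 at an unadjusted p under 0.05, and limma on the authors' TPM gave 0 of both.

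**Figure D1:**
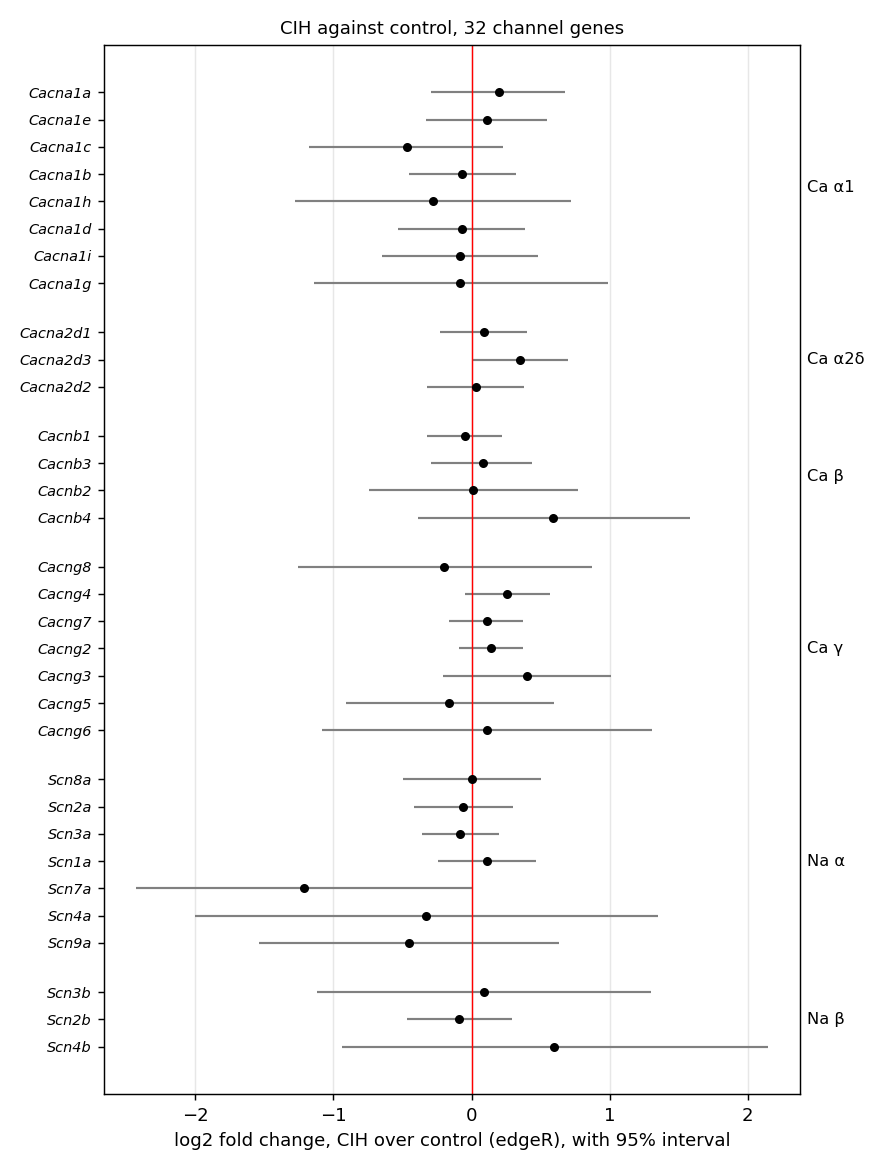
Log2 fold change of CIH over control (x axis) for 32 tested channel genes (y axis, by class), with the 95% interval from the edgeR fit as bars. The points lie between -1.21 (Scn7a) and 0.60 (Scn4b). The narrowest bars belong to Cacng2, Cacng7 and Cacnb1, and the widest to Scn4a and Scn4b.

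The 95% intervals show how much change the data leave room for. For 11 genes the interval lay within 0.5 log2 units of 0 on both sides: Cacna1b, Cacna2d1, Cacna2d2, Cacnb1, Cacnb3, Cacng2, Cacng7, Scn1a, Scn2a, Scn3a and Scn2b. For 21 of the 34 it lay within 1 log2 unit. It reached past that size for the other 13, among them Cacna1c, Cacna1g, Cacna1h, Cacnb4, Cacng3, Cacng6, Cacng8, Scn4a, Scn7a, Scn9a, Scn3b and Scn4b.

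The pore-forming α1 genes showed broad expression of presynaptic, dendritic and low-threshold calcium channels. Ordered by mean TPM over the 6 libraries, Cacna1a (238.1), which forms the P/Q-type channel of presynaptic terminals, was followed by Cacna1e (203.1), the R-type pore, and Cacna1c (154.1), an L-type pore that couples activity to transcription. Next came the N-type gene Cacna1b (115.8), the T-type gene Cacna1h (102.3), the L-type gene Cacna1d (100.1) and the T-type genes Cacna1i (75.8) and Cacna1g (48.6). The ranges of each gene and the next in this order overlapped. The order of Cacna1a and Cacna1e depended on the unit. In CPM, not scaled to length, Cacna1e averaged 1105.4 in control and 1195.3 in CIH, and Cacna1a 461.2 and 528.3. Cacna1f, the retinal L-type gene, held 2 to 6 counts per library and was not tested.

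Cacna1a stood at 254.2, 204.1 and 179.0 TPM in the control libraries and at 242.6, 273.7 and 275.1 TPM in CIH. CIH replicates 2 and 3 were the highest, but control replicate 1 lay above CIH replicate 1. Its log2 fold change was 0.20 (SE 0.20). Cacna1e stood at 228.4, 184.8 and 182.6 TPM in control and 183.8, 209.2 and 229.8 TPM in CIH, with the groups fully interleaved and a log2 fold change of 0.11 (SE 0.19). Cacna1c stood at 143.3, 195.2 and 221.5 TPM in control and 77.3, 153.9 and 133.5 TPM in CIH. It was lowest in CIH replicate 1, and CIH replicate 2 overlapped the controls. The log2 fold change of Cacna1c was -0.47 (SE 0.30), the smallest p of this class, and it was -0.20 without CIH replicate 1.

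The T-type genes, whose channels open near the resting potential and shape burst firing, include 2 with 1 or 2 libraries well below the others. Cacna1h stood at 33.0 TPM in CIH replicate 1 and at 85.8 to 144.7 TPM in the other 5 libraries, so its log2 fold change of -0.28 (SE 0.42) became 0.08 without that library. Cacna1g was at 24.1 TPM in control replicate 1 and 27.1 TPM in CIH replicate 3, the libraries with the highest oligodendrocyte scores, and at 53.8 to 64.4 TPM in the other 4. The part of either marker list in these levels was not tested. Cacna1g had a log2 fold change of -0.08 (SE 0.45), with each group holding 1 low library. Per-library values of Cacna1h and Cacna1g are given because their values stood out. Cacna1i stood at -0.08 (SE 0.24), Cacna1b at -0.07 (SE 0.16) and Cacna1d at -0.07 (SE 0.19).

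**Figure D2:**
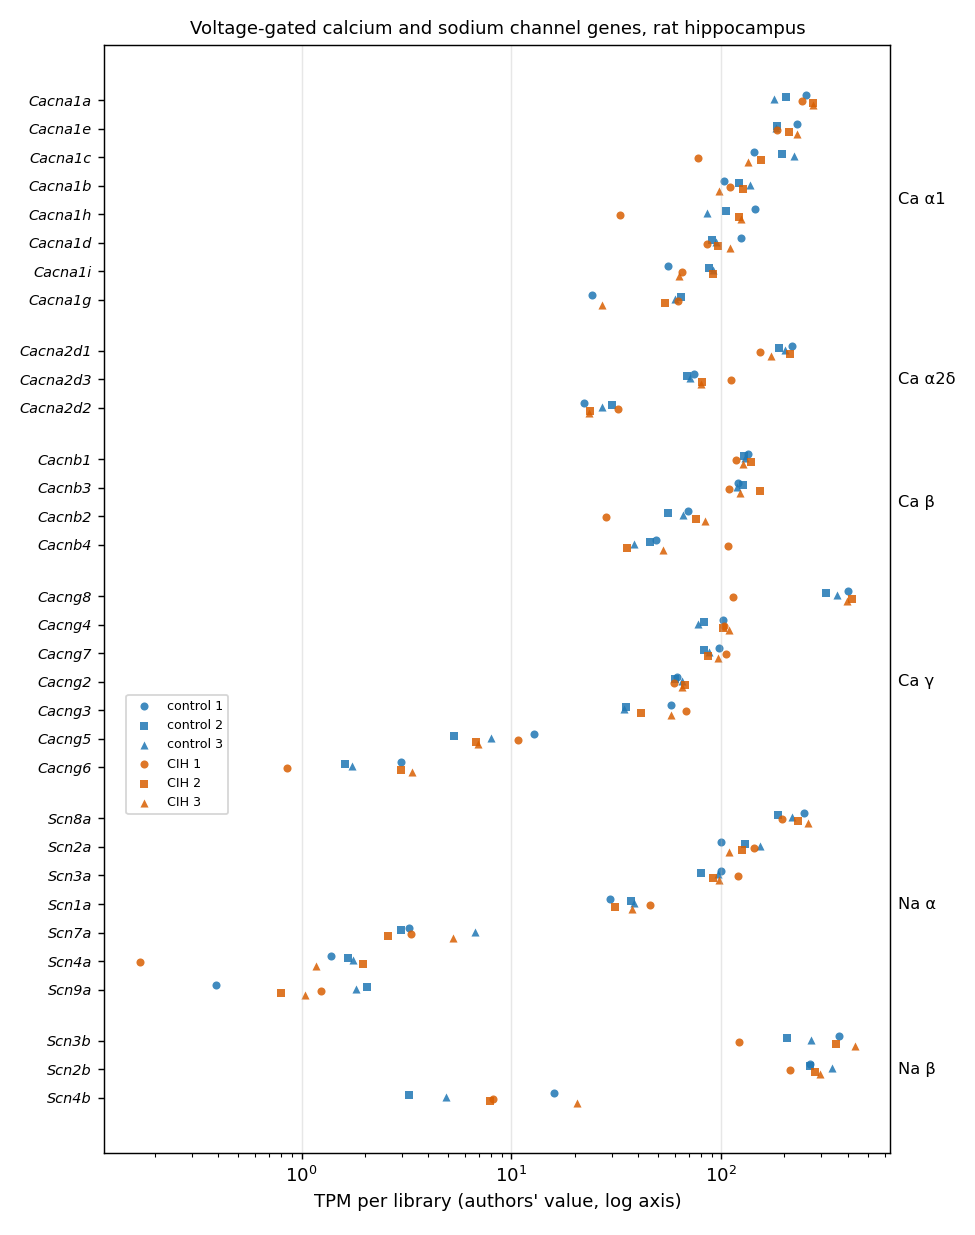
TPM of 32 tested channel genes in each library (x axis, log scale), with genes by class on the y axis, blue for control and orange for CIH and 1 marker shape per replicate number. CIH replicate 1 (orange circles) lies far below the other libraries for Cacng8, Cacna1h, Cacnb2, Scn3b and Scn4a and above them for Cacnb4, while for most genes blue and orange are mixed.

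The α2δ genes encode extracellular proteins that carry calcium channels to the surface, and Cacna2d1 and Cacna2d2 encode the binding sites of gabapentin. Cacna2d1 was the most abundant (190.7 TPM on average), followed by Cacna2d3 (80.9) and Cacna2d2 (26.4), with no overlap between the ranges of these genes. Cacna2d4 held 1 to 6 counts per library and was not tested. Cacna2d3 stood at 74.1, 68.5 and 71.0 TPM in control and 111.0, 81.1 and 79.8 TPM in CIH. All CIH libraries lay above all controls, on the CPM scale too, and CIH replicate 1 was the highest. Its log2 fold change was 0.35 (SE 0.15, unadjusted p = 0.0469), and it was 0.19 without CIH replicate 1. Its counts were fractional in all 6 libraries.

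Cacna2d1 differed in direction between the units. It stood at 217.3, 188.7 and 201.1 TPM in control and 152.2, 212.9 and 172.2 TPM in CIH, while its counts gave 278.8, 225.4 and 275.0 CPM in control and 247.0, 291.5 and 288.6 CPM in CIH. CIH replicates 1 and 3 were the lowest on the TPM scale, and CIH replicates 2 and 3 the highest on the CPM scale. The log2 fold change was 0.09 (SE 0.13) on counts and -0.19 with limma on TPM. Cacna2d2 stood at 0.03 (SE 0.15).

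The β genes encode cytosolic subunits that bind the pore and bring it to the membrane. Cacnb1 (129.4 TPM on average) and Cacnb3 (125.1) overlapped in range and lay above Cacnb2 (63.1) and Cacnb4 (54.8), which overlapped each other. In CPM, Cacnb4 averaged 157.8 in control and 238.0 in CIH, and Cacnb3 151.2 and 159.5. Cacnb1 was the steadiest, at 133.8, 129.0 and 130.1 TPM in control and 117.8, 138.6 and 126.9 TPM under CIH. Its log2 fold change was -0.05 (SE 0.11). Cacnb3 stood at 120.1, 127.2 and 118.9 TPM in control and 108.9, 153.1 and 122.3 TPM in CIH, which gave 0.08 (SE 0.15). For both, the CIH libraries spread to either side of the controls.

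Cacnb2 and Cacnb4 stood on opposite sides of the other libraries in CIH replicate 1. Cacnb4, whose loss causes ataxia and seizures in mice, stood at 48.9, 45.9 and 38.4 TPM in control and 107.3, 35.5 and 53.0 TPM in CIH. Only CIH replicate 1 was high. The log2 fold change of Cacnb4 was 0.59 (SE 0.42) with all libraries and -0.03 without that one. Cacnb2, given after its values were seen, was at 28.2 TPM in CIH replicate 1 and 55.8 to 83.7 TPM elsewhere, a log2 fold change of 0.01 (SE 0.32) that became 0.32 without it.

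Among the γ genes, most of those of the AMPA receptor partners (TARPs) were abundant. Cacng8, the main hippocampal TARP gene, averaged 333.4 TPM, and its range lay above those of all other γ genes. Cacng4 (95.7) and Cacng7 (92.4) overlapped each other, as did the stargazin gene Cacng2 (63.1) and Cacng3 (48.9). Cacng5 averaged 8.42 and Cacng6, a relative of the muscle γ gene, 2.25 TPM. In CPM the range of Cacng8, 63.1 to 241.5, took in that of Cacng7, 81.5 to 101.7. Cacng8 stood at 400.4, 314.4 and 357.2 TPM in control and 113.3, 418.7 and 396.4 TPM in CIH. CIH replicates 2 and 3 were level with the controls and CIH replicate 1 was far below them. Its log2 fold change of -0.20 (SE 0.45) became 0.20 without CIH replicate 1.

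Cacng2 and Cacng4 were the γ genes with the most even values within CIH. Cacng4 stood at 101.8, 82.4 and 77.3 TPM in control and 102.5, 101.7 and 108.5 TPM in CIH, so the groups touched only at control replicate 1, and its log2 fold change was 0.26 (SE 0.13). Cacng2 stood at 35.9, 32.0 and 33.7 CPM in control and 35.9, 38.0 and 37.8 CPM in CIH. The CIH libraries lay above the controls by log2 CPM, with CIH replicate 1 level with control replicate 1 at this rounding, and the groups overlapped on the TPM scale. The log2 fold change of Cacng2 was 0.14 (SE 0.10). Cacng3 stood at 0.40 (SE 0.26), Cacng7 at 0.11 (SE 0.11), Cacng6 at 0.11 (SE 0.50) and Cacng5 at -0.16 (SE 0.32).

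Cacna2d3 and Cacng2 were the only tested channel genes whose groups did not overlap in log2 CPM. They make 2 of 34, or 5.88%, where the share over all genes tested was 5.70%, so the count is near the background. In both the CIH libraries lay above the controls, as in 3.05% of all genes, and 0 channel genes had all CIH libraries below the controls, as 2.65% of all genes did. With RLE size factors Cacng2 no longer separated and 1 gene was left.

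The stretch before the start site is shown for 4 of these genes, whose values separated between the groups (Cacna2d3, Cacng2) or were lowest in CIH replicate 1 by a wide margin (Cacng8, Cacna1c). Each is 250 bases long and ends just before the start, and the sequences are RefSeq's from build GRCr8. They lie on the minus strand at chr16:4918900-4919149 (Cacna2d3), chr7:111577758-111578007 (Cacng2), chr1:74691004-74691253 (Cacng8) and chr4:154051749-154051998 (Cacna1c). Capitals mark matches, on either strand, to the GC box GGGCGG, the TATA box TATAAA and the cores ACGTG and GCGTG of the hypoxia response element.
Cacna2d3: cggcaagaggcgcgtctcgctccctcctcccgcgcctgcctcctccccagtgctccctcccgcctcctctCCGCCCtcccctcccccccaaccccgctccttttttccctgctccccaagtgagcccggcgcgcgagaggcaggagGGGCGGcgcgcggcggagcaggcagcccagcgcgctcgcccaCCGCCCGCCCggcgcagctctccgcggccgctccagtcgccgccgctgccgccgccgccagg
Cacng2: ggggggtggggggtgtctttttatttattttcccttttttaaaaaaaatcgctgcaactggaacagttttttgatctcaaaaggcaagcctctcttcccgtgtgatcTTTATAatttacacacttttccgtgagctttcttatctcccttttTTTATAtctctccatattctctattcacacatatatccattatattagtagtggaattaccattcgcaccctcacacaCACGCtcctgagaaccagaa
Cacng8: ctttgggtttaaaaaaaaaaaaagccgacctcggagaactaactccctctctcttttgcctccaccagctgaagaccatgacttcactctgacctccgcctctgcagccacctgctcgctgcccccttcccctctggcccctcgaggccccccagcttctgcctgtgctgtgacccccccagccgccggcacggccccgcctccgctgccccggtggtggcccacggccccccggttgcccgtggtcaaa
Cacna1c: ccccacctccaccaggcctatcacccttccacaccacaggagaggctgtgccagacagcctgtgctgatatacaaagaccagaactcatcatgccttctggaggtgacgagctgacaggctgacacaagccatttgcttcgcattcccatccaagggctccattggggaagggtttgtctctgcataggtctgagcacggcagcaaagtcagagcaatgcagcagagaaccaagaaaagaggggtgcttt
Cacna2d3 held 4 GC box matches, of which 2 overlap, and Cacng2 held 2 TATA box matches and 1 hypoxia core. Cacng8 and Cacna1c held none of the motifs searched. Over 28 such windows of the 25 members that matched the table, a hypoxia core was present in 9 (32.1%), against 36.7% of all 33469 windows. A GC box was present in 15 (53.6%, against 30.5%) and a TATA box in 1 (3.57%, against 12.9%). These are letter matches in a window, with no binding measured.

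The sodium channel α genes divided into an abundant neuronal set and a set at low levels. Scn8a, the pore of axon initial segments and nodes, averaged 222.9 TPM and its range lay above that of Scn2a (126.6), the axonal channel of excitatory neurons. Scn3a (97.7), best known from the developing brain, overlapped Scn2a, and Scn1a (36.6), the main channel of parvalbumin interneurons, lay below Scn3a without overlap. Lower still, averages were 4.02 TPM (Scn7a, a sodium-sensing channel), 1.35 (Scn4a, of skeletal muscle) and 1.22 (Scn9a, of sensory neurons). The order of Scn1a and Scn3a depended on the unit. In CPM, which is not scaled to length, Scn1a averaged 147.9 in control and 159.8 in CIH, and Scn3a 127.2 and 120.4. The ranges of Scn8a and Scn2a overlapped in CPM, at 388.4 to 619.0 and 399.9 to 547.0. Members of this family are close copies. Counts of Scn1a, Scn2a, Scn7a and Scn9a were fractional in all 6 libraries, as were those of Cacna1e and Cacna2d3, while those of Scn8a were whole. Counts of Scn3a and Cacna1b were fractional in 83.3% of libraries, those of Cacna1c in 50.0% and those of Scn2b in 16.7%. Fractional counts mean that reads were divided by estimate, so values of these genes are less certain. Whether reads shared between channel genes were the source was not tested.

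The 4 neuronal α genes had log2 fold changes near 0. Scn8a stood at 248.1, 186.8 and 217.1 TPM in control and 194.7, 231.9 and 258.9 TPM in CIH, with the groups interleaved and a log2 fold change of 0.00 (SE 0.21). Scn2a stood at 100.2, 130.2 and 152.5 TPM in control and 143.4, 124.9 and 108.4 TPM in CIH, which gave -0.06 (SE 0.15). The lowest Scn2a values were those of control replicate 1 and CIH replicate 3. Scn1a stood at 0.11 (SE 0.15) and Scn3a at -0.08 (SE 0.12).

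Of the scarce α genes, Scn7a had a small unadjusted p, but its values depended on the unit. Its estimated counts were 20.77, 69.63 and 96.45 in control and 20.89, 31.05 and 23.65 in CIH. This gave a log2 fold change of -1.21 (SE 0.51, unadjusted p = 0.0495). Control replicate 1 was as low as the CIH libraries. The TPM values were 3.25, 2.97 and 6.73 in control against 3.33, 2.58 and 5.25 in CIH, which limma gave as -0.14 with a pseudocount of 1. Scn9a stood at -0.45 (SE 0.46) and Scn4a at -0.33 (SE 0.71). Scn4a had 11 counts in CIH replicate 1 and 73 to 154 in the other libraries, and was at 0.17 without that library. The 3 tested markers of skeletal and cardiac muscle had scores of -0.37 to 0.25, with 0.22 in CIH replicate 1, and their part in the Scn4a values was not tested.

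Scn11a, a channel of peripheral sensory neurons, was not tested because few libraries held counts, and it is given after its values were seen. It had 0, 18 and 0 counts in control and 76, 0 and 1 in CIH, so its counts came almost wholly from CIH replicate 1 and control replicate 2. Scn10a, of the same neurons, had 0 to 5 counts. The peripheral sensory marker score was highest in the same 2 libraries, at 0.70 and 0.34, from 3 tested genes. The 4 genes of that list in the table summed to 3.61 to 10.9 TPM. Of these, Prph stood at 6.0 CPM in CIH replicate 1 and 1.14 to 2.64 CPM elsewhere. Avil was also highest in CIH replicate 1, at 1.35 CPM. Trpv1 stood at 3.03 CPM there, below control replicate 1 (3.83 CPM). Isl1, not tested, had 0 counts in CIH replicate 1 and control replicate 2, and its only 3 counts were in control replicate 1. The part of this list in the Scn11a and Scn10a counts was not tested.

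The sodium β genes encode single-pass adhesion proteins that modulate the α pore. Scn3b averaged 290.6 TPM and Scn2b 275.8, with overlapping ranges, and Scn4b, linked to resurgent current, 10.1 TPM. Scn3b stood at 364.8, 205.2 and 267.7 TPM in control and 120.9, 353.5 and 431.6 TPM in CIH, which gave 0.09 (SE 0.51). CIH replicate 1 was below every control and the other CIH libraries were near or above the highest control. Without CIH replicate 1 the value for Scn3b was 0.49.

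Scn4b, given after its values were seen, followed the pair of libraries named above. It stood at 15.9, 3.25 and 4.90 TPM in control and 8.17, 7.86 and 20.6 TPM in CIH, with control replicate 1 and CIH replicate 3 the highest. The log2 fold change was 0.60 (SE 0.65), 1.59 without control replicate 1 and 0.01 without CIH replicate 3. Scn2b stood at -0.09 (SE 0.16).

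CIH replicate 1 was the outermost library for 20 of 34 channel genes (58.8%), while over all genes tested it was outermost for 51.2%. It was lowest by more than 1.5-fold below the next library for 7 channel genes: Cacna1c, Cacna1h, Cacnb2, Cacng6, Cacng8, Scn3b and Scn4a. These are 20.6% of the 34, against 3.85% of all genes tested. It was highest by that margin for 1, Cacnb4, or 2.94% against 3.35%. No other library stood apart by that margin for more than 1 channel gene on either side. In the same library the dentate granule (-1.34), CA3 pyramidal (-0.63) and choroid plexus (-1.95) scores were lowest, and the cortex (0.85) and thalamus (0.47) scores highest. The part of any of these cells or tissues in the channel gene levels was not tested.

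**Figure D3:**
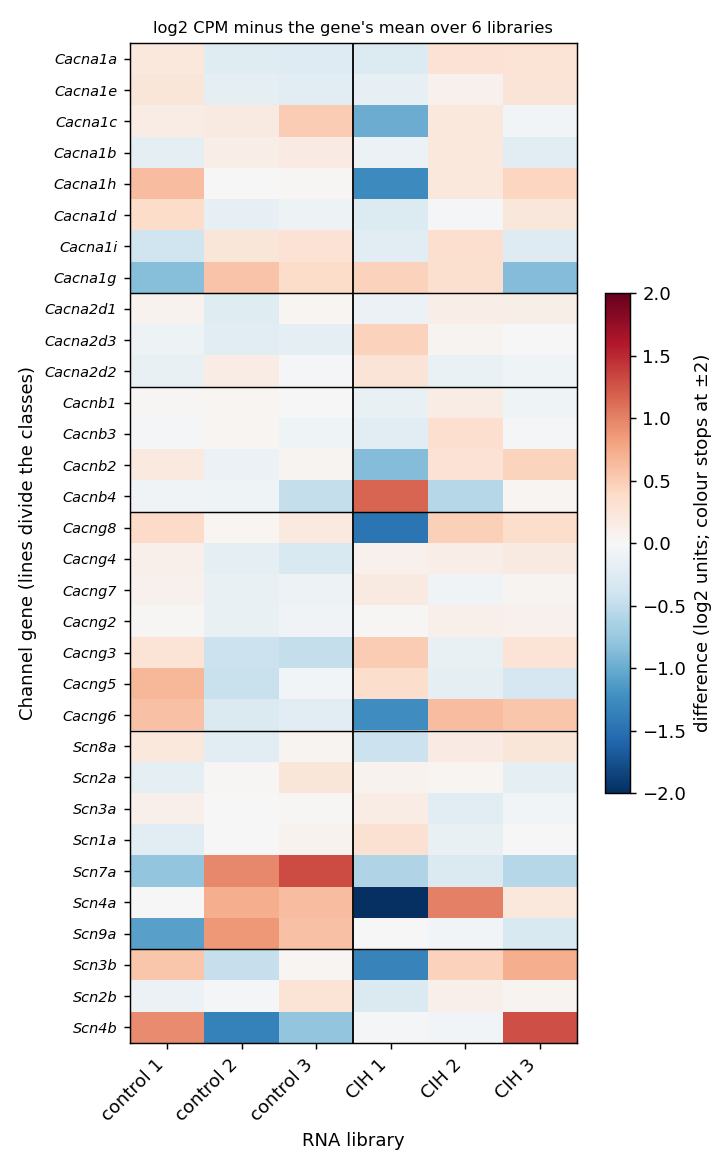
Log2 CPM of 32 tested channel genes, each minus its mean over the 6 libraries (colour), with libraries in columns and genes, divided by class, in rows. The CIH replicate 1 column holds deep blue cells for Cacna1c, Cacna1h, Cacnb2, Cacng8, Cacng6, Scn3b and Scn4a and a red cell for Cacnb4, and control replicate 1 and CIH replicate 3 share low Cacna1g and high Scn4b.

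The make-up of each class by TPM shows which gene dominates it and where 1 library departs. Cacng8 held 54.1% to 56.6% of γ TPM in control and 24.7%, 57.7% and 54.0% in CIH. Cacnb4 held 10.9% to 13.1% of β TPM in control and 29.6%, 8.82% and 13.7% in CIH. Within the α1 class, Cacna1a held 23.6%, 19.4% and 17.0% in control and 28.2%, 24.3% and 25.9% in CIH, with no overlap. Cacna2d3 held 23.6% to 23.8% of α2δ TPM in control and 37.5%, 25.5% and 29.0% in CIH, also with no overlap. Cacnb1 did not overlap in the other direction, with 35.9%, 36.0% and 36.8% of β TPM in control and 32.5%, 34.4% and 32.9% in CIH. For every other member the groups overlapped in share, and Cacna1a itself overlapped in TPM. No background over other genes exists for shares within a class. Scn8a held 45.2% ± 5.34 of sodium α TPM in control and 45.6% ± 6.63 in CIH (SD, n = 3 each). Shares within a class are tied to each other and were not tested.

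Class sums of TPM were 1060.6 ± 15.1 in control and 1015.6 ± 139.5 in CIH for α1, 300.1 ± 13.1 and 296.4 ± 21.5 for α2δ, and 361.1 ± 9.92 and 383.6 ± 20.3 for β genes (SD, n = 3 each). They were 648.9 ± 78.1 and 639.6 ± 156.1 for γ, and 480.7 ± 36.5 and 502.0 ± 14.7 for sodium α genes (SD, n = 3 each). In each of these classes the difference between group means was under the larger of the SDs except for the β genes, whose sums overlapped at 353.3 to 372.3 in control and 362.2 to 402.6 in CIH. The α1 sum was 859.1 in CIH replicate 1 and 1051.8 to 1127.1 in the other libraries.

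**Figure D4:**
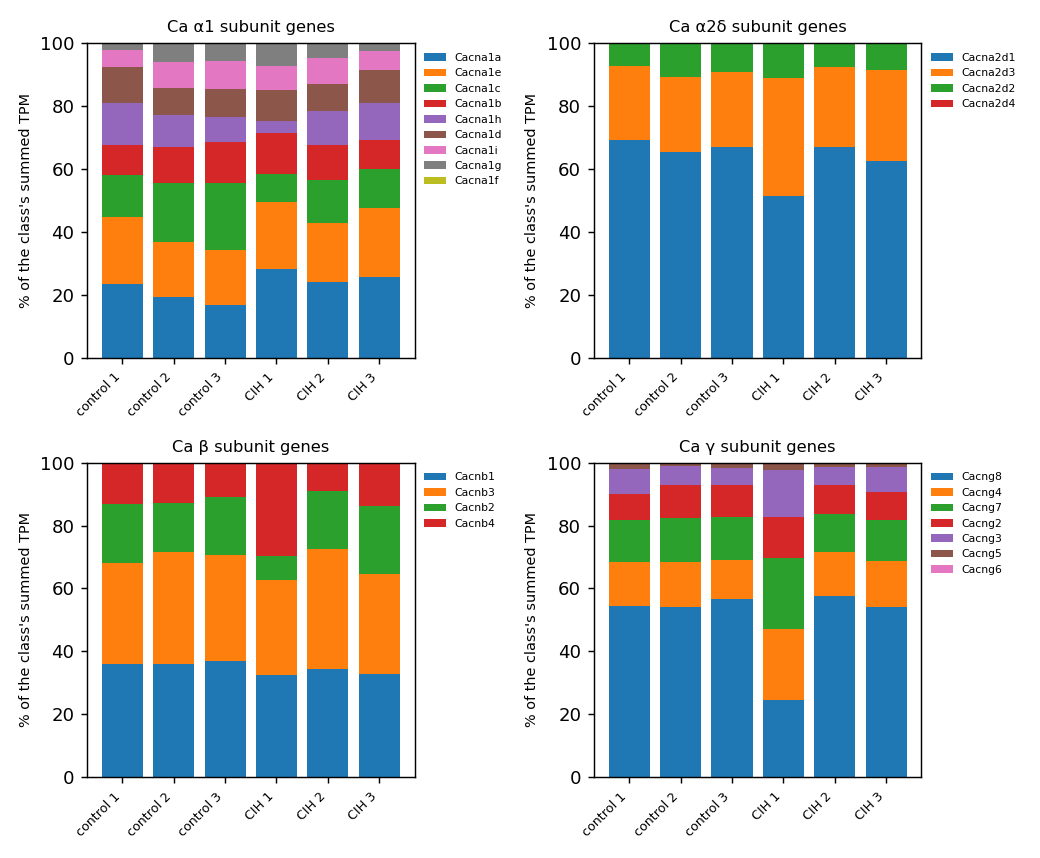
Share of each calcium channel class's summed TPM (y axis, percent) held by each channel gene in each of the 6 libraries (x axis), with 1 panel per class. CIH replicate 1 shows a small Cacng8 share (24.7%) and a large Cacnb4 share (29.6%), and the other bars of those panels are alike.

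Genes that work with these channels showed no call either. Of 12 sodium channel partners, 6 had log2 fold changes above 0 and 0 passed the edgeR test (0 at an unadjusted p under 0.05). Those with the smallest p were the spectrin gene Sptbn4 at -0.17 (SE 0.17), the intracellular FGF gene Fgf14 at 0.14 (SE 0.14) and the node protein gene Nfasc at 0.12 (SE 0.15). Of 17 tested calcium channel partners, 13 were above 0, with a median of 0.08. Over all genes tested, 50.6% were above 0. The adaptor gene Stac2 stood at 0.62 (SE 0.39), the channel inhibitor gene Gem at 0.85 (SE 0.63) and the calcium sensor gene Ncs1 at 0.14 (SE 0.11). Stac2 and Gem were highest in CIH replicate 1 and stood at 0.03 and -0.24 without it.

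The sodium leak channel NALCN sets resting excitability. Of its 4 genes, 1 was above 0, with Nalcn at -0.15 (SE 0.11), Fam155a at -0.10 (SE 0.12) and Unc80 at -0.08 (SE 0.15). Of 16 genes of calcium stores, pumps and exchangers, 9 were above 0, with a median of 0.02. The inositol trisphosphate receptor gene Itpr3 stood at 0.53 (SE 0.38), the exchanger gene Slc8a3 at 0.45 (SE 0.52) and the store pump gene Atp2a3 at 0.26 (SE 0.33). All 3 were highest in CIH replicate 1, and without it they stood at -0.06, -0.40 and -0.07. None of the genes in these 4 lists passed the edgeR test, and none had an unadjusted p under 0.05.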

How the data were processed

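Bulk RNA-seq of 6 hippocampal libraries (3 control, 3 CIH, groups from the labels) was used, and the small RNA libraries were left out. The deposited table gives, per gene and library, an estimated count, FPKM and TPM made by the authors, and 16.0% of the estimated counts are not whole. RSEM 1.2.12, HISAT2 2.2.0, Bowtie2 2.2.5 and build Rnor_6.0 are named in the submitters' processing notes, with no role for each. FPKM values, as deposited, were not used. The sources used here do not say whether counting used strand, and 22 of 37 members overlap another gene in RefSeq's list for GRCr8.

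Estimated counts were rounded and tested over all genes kept by filterByExpr (17935 of 26949) with edgeR 4.0.16 (TMM, quasi-likelihood test, Benjamini-Hochberg, threshold 0.05), in R 4.3.3. SE is the absolute log2 fold change over the square root of F. Log2 CPM used a prior count of 2. Levels were compared between genes on the authors' TPM. Alternatives were RLE size factors, no filter, DESeq2 1.42.0, limma 3.58.1 on log2(TPM + 1) and log2(TPM + 0.1), a replicate block, and leaving out each library. On simulated data for this comparison (17935 genes), the test called 28% of 100 genes given a change of 1 log2 unit. It called 75% of 100 given a change of 2 units, with 19 false calls among 17735 unchanged genes. The simulated counts were drawn independently for each gene and library, without the library differences described above. These rates therefore need not hold for the real libraries or for the channel genes.

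Of the tested members, 2 are not reported here by name or value, though counts over the members include them, and every other member is named. Values per library are given, within each class, for the 2 highest genes by TPM, the smallest p and genes whose groups do not overlap, and the text says where others were added. Of each partner list the 3 genes of smallest p are named. Members and lists were chosen with earlier results of these data known. Promoter sequences matched by symbol for 25 of 37 members. Figures were drawn with matplotlib 3.10.9.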

Additional observations from a re-analysis of the deposited data

How the results depend on the processing

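No channel gene was called under any of the 12 alternatives run, and the cause of the shifts below was not tested. Over all genes tested, calls numbered 0 in the edgeR fit reported, 9 with DESeq2, 1 with limma on log2(TPM + 1), 1 with limma on log2(TPM + 0.1), and 0 to 1 when 1 library was left out. Channel genes whose groups did not overlap numbered 2, and 1 with RLE size factors, 1 without the filter, 1 with DESeq2, 1 with limma at either pseudocount, and 1 to 11 when 1 library was left out. The 11 came without control replicate 1, where 22.4% of all genes did not overlap, and leaving out CIH replicate 1 gave 7 (14.3% of all genes), CIH replicate 2 gave 5 (18.8%) and control replicate 3 gave 1 (9.79%). The median log2 fold change of the channel genes was 0.01 and lay between -0.08 and 0.09 with 1 library left out.

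Same-numbered libraries did not deviate together (correlations of -0.22, -0.05 and -0.18 over genes), and 0 of 6 libraries were closest to the one of their own number in the other group. With the replicate number as a block, 0 genes were called, the channel gene median was -0.04, and Cacnb2 (-0.08) and Scn3b (-0.03) turned below 0.

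With limma on TPM, at either pseudocount, the direction turned for Cacna2d1 (-0.19), Cacna2d2 (-0.01), Cacnb2 (-0.17), Scn8a (0.07), Scn3a (0.16), Scn3b (-0.04), Fgf14 (-0.01) and Unc80 (0.0026). Over these settings and the block, 28 of 34 channel genes kept their direction. Leaving out 1 library at a time, 13 of 34 kept it (among them Cacna1a, Cacna1c, Cacna1e, Cacna2d3, Cacng2, Cacng3, Cacng4, Cacng7, Scn4b, Scn7a and Scn9a), but many of these moved by over 1.5 times. Ranges were 0.10 to 0.36 for Cacna1a, 0.0035 (without CIH replicate 3) to 0.28 for Cacna1e, -0.73 to -0.20 for Cacna1c, 0.24 to 0.68 for Cacng3, 0.17 to 0.39 for Cacng4, 0.04 to 0.18 for Cacng7, 0.09 to 0.18 for Cacng2 and -0.85 to -0.10 for Scn9a. The values of Cacna1a, Cacna1e, Cacng2, Cacng3, Cacng4 and Cacng7 farthest from 0 came without control replicate 1, as did that of Scn9a. The smallest adjusted p of a channel gene was 0.569 by edgeR, without control replicate 1.

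The other 21 turned, over these ranges of log2 fold change. For calcium α1 genes they were -0.21 to 0.01 (Cacna1b), -0.59 to 0.08 (Cacna1h), -0.21 to 0.11 (Cacna1d), -0.30 to 0.03 (Cacna1i) and -0.40 to 0.23 (Cacna1g). For α2δ and β genes they were -0.01 to 0.15 (Cacna2d1), -0.11 to 0.11 (Cacna2d2), -0.14 to 0.01 (Cacnb1), -0.09 to 0.18 (Cacnb3), -0.23 to 0.32 (Cacnb2) and -0.03 to 0.91 (Cacnb4). For γ genes they were -0.50 to 0.20 (Cacng8), -0.39 to 0.21 (Cacng5) and -0.16 to 0.50 (Cacng6). For sodium channel genes they were -0.13 to 0.18 (Scn8a), -0.16 to 0.06 (Scn2a), -0.18 to 0.0038 (Scn3a), -0.03 to 0.20 (Scn1a), -1.07 to 0.17 (Scn4a), -0.28 to 0.49 (Scn3b) and -0.16 to 0.04 (Scn2b). Among partner genes they were -0.01 to 0.25 (Fgf14), -0.24 to 1.21 (Gem), -0.16 to 0.04 (Unc80), -0.06 to 0.77 (Itpr3), -0.40 to 0.82 (Slc8a3) and -0.07 to 0.54 (Atp2a3). Scn7a, Scn9a, Scn4a and Cacng6 rested on few counts, and Cacna1f, Cacna2d4 and Scn11a did not pass the filter on low counts. None of the 3 was called in the fit without that filter, nor was Scn11a in the 4 fits with 1 library left out that tested it.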

Other observations

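The count behind 1 TPM of a gene follows the length of the transcripts to which its reads were assigned. Relative to its control mean, and after removing each library's median, this ratio for Scn3a was 0.960, 1.09 and 0.949 in control and 0.820, 0.814 and 0.889 in CIH. The groups did not overlap for this ratio in 2 of 34 channel genes (5.88%), Scn3a among them, against 6.01% of 15247 genes, so the count is near the background. Scn3a had a log2 fold change of -0.08 on counts and a log2 ratio of mean TPM of 0.16, and its counts were fractional in 83.3% of libraries. For Cacna2d1 the ratio was 0.997, 0.925 and 1.08 in control and 1.28, 1.04 and 1.32 in CIH, so the groups overlapped at control replicate 3. For Scn7a it spanned 5.06-fold over the libraries. Of the 34 tested channel genes, 2 (Scn7a and Scn9a) spanned more than 1.5-fold, or 5.88%, against 5.52% of the same 15247 genes. The direction differed between counts and mean TPM in 5 of the 34, which were Cacna2d1, Cacna2d2, Cacnb2, Scn3a and Scn8a.

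Several of these genes lie next to each other in RefSeq's GRCr8 list. Scn3a and Scn2a are neighbours, as are Scn1a, Scn9a and Scn7a, and Scn2b and Scn4b. Cacng6, Cacng8 and Cacng7 form another run, in which Cacng8 and Cacng6 were lowest in CIH replicate 1 by more than 1.5-fold (113.3 and 0.85 TPM), while Cacng7 stood at 104.8 TPM there and at 82.8 to 97.5 TPM in the other libraries. Scn2b and Scn4b also differed, with Scn2b at 213.1 to 337.1 TPM and Scn4b at 3.25 to 20.6 TPM over the 6 libraries.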
